A study of Mus musculus with 4 samples.

Results

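The genes described here are 9 genes of the urea cycle and of ammonia handling: Cps1, Otc, Ass1, Asl, Arg1, Nags, Slc25a15, Slc25a13 and Gls2. They were taken by symbol from the deposited table of 13903 genes, and all 9 were found in it, as ENSMUSG00000025991 (Cps1), ENSMUSG00000031173 (Otc), ENSMUSG00000076441 (Ass1), ENSMUSG00000025533 (Asl), ENSMUSG00000019987 (Arg1), ENSMUSG00000048217 (Nags), ENSMUSG00000031482 (Slc25a15), ENSMUSG00000015112 (Slc25a13) and ENSMUSG00000044005 (Gls2). Sequencing of mRNA was done on whole liver from OGT-Floxed mice (C57BL/6J), all fed a CDE diet (choline-deficient, ethionine-supplemented), a diet that injures this organ. The OGT-KO mice received AAV8-TBG-CRE, and the control mice received AAV8-TBG-eGFP, so the controls carried the floxed allele, the viral capsid and the diet as well. The TBG promoter is active in hepatocytes, so the other cells of these livers keep the gene. Tissue was collected either without recovery from the diet or 7 days into recovery. Every one of the 4 conditions is 1 library of equally pooled RNA from 3 mice. There is thus no replicate check on any difference, no test was possible, and the intervals given cover counting error only. The age and sex of the mice and the length of the diet are not given in the sources used here.

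The urea cycle turns ammonia, which is toxic to the brain, into urea, and the whole cycle runs in hepatocytes. Its first steps lie in mitochondria. N-acetylglutamate, made by NAGS, switches on carbamoyl phosphate synthetase (CPS1), and ornithine transcarbamylase (OTC) joins the carbamoyl phosphate to ornithine. Citrulline leaves for the cytosol, where argininosuccinate synthase (ASS1), argininosuccinate lyase (ASL) and arginase (ARG1) complete the cycle, and the carriers SLC25A15 (ornithine and citrulline) and SLC25A13 (aspartate and glutamate) link both compartments. In the liver lobule the cycle and the glutaminase GLS2, which frees ammonia from glutamine, belong to the periportal side. A narrow rim of hepatocytes around the central vein catches the ammonia that escapes, using glutamine synthetase (Glul).

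RefSeq promoter sequences were at hand for 5 of the 9 genes, Otc, Ass1, Slc25a15, Slc25a13 and Nags. Those of 3 genes are shown because these genes spanned the range of differences found between the labels: Otc, the gene with the widest difference, Ass1, the most abundant per length, and Slc25a15, whose difference was the highest of the 9 at both times. Each run is the 250 bases before the RefSeq start on GRCm38.p6, read 5′ to 3′ along the gene. Otc lies at chrX:10252055-10252304 on the plus strand, Ass1 at chr2:31470020-31470269 on the plus strand, and the more upstream of 2 starts of Slc25a15 at chr8:22398622-22398871 on the minus strand. Capitals mark matches to the motifs searched, which were the nuclear receptor half-site AGGTCA, its variant of the HNF4α kind AGTTCA, the C/EBP motif TTGCNNAA, the E-box CACGTG and the GC box CCGCCC on both strands, and the TATA box TATAAA on the gene's strand. No 2 marked matches overlap.
Otc: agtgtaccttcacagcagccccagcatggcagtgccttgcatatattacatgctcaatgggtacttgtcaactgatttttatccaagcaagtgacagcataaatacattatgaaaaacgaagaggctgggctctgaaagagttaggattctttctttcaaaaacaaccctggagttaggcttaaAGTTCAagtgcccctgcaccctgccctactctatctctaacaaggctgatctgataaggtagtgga
Ass1: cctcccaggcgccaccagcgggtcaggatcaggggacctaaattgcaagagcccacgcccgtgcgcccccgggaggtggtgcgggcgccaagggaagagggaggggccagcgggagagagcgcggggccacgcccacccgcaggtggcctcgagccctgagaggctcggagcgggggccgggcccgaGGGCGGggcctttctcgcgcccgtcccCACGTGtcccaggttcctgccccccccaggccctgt
Slc25a15: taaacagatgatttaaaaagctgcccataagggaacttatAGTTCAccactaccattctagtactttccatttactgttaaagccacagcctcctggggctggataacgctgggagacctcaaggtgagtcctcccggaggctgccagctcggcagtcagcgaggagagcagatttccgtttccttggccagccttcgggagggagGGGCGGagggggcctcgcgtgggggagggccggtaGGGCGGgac

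The Otc window held a single match, AGTTCA 66 bases before the start, a motif present in 11.8% of the 32851 promoter windows of this length. It had 1 CpG and a GC content of 43.6%, against a median of 6 CpGs and 52.4% over all windows. The Ass1 window had 23 CpGs and a GC content of 75.6%, with an E-box 36 bases before the start (6.02% of windows) and a GC box 63 bases before it (32.7% of windows). The Slc25a15 window shown had 11 CpGs, an AGTTCA 210 bases before the start and GC boxes 44 and 9 bases before it. The window of its other start had 43 CpGs and a GC content of 80.4%. It held an E-box 77 bases before that start, 5 GC box matches and no AGTTCA. The C/EBP motif and the TATA box, found in 9.56% and 7.59% of windows, had no match in any window of the 5 genes. A match of letters is a description and was not tested for binding.

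Depth was even, at 19972699 to 22866431 reads on the listed genes per library. The deposited values are CPM, reads scaled to a library total of 1000000, and 3 reads, taken as the floor, were 0.131 to 0.150 CPM. Ogt, the deleted gene, had 64.7 CPM in the library labelled control and 55.3 in the library labelled OGT-KO without recovery, and 55.7 and 77.7 after 7 days. On this scale its total RNA did not separate the labels in the same direction at both times. Its log2 differences were -0.22 and 0.47 as deposited, -0.93 and -0.20 by median ratio and 0.20 and 0.85 when scaled to hepatocyte markers, so whether Ogt was lower under the OGT-KO label depends on the scaling, and every direction below is a direction between labels. Hepatocyte markers were abundant in all 4 libraries: the 9 of 10 listed markers found in the table summed to 89551 and 101991 CPM in the libraries labelled control without recovery and after 7 days, and to 66734 and 78103 CPM in those labelled OGT-KO. The fixed markers of stellate cells, macrophages, endothelium, ducts and lymphocytes (33 of 35 found) summed to 679 and 439.6 CPM in the libraries labelled control, and to 5714 and 6536 in those labelled OGT-KO. Of the 26 of these markers with a mean of at least 10 CPM, 21 were higher by 2-fold or more under the OGT-KO label at both times and 0 were lower. Over all genes with such a mean, 19.2% were higher and 3.74% lower by that much at both times. Chil3, a macrophage marker, had 0 reads in the library labelled control without recovery. The part of cell composition in the differences below was not tested, and in bulk RNA fewer hepatocytes and less RNA per hepatocyte cannot be told apart.

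**Figure D1:**
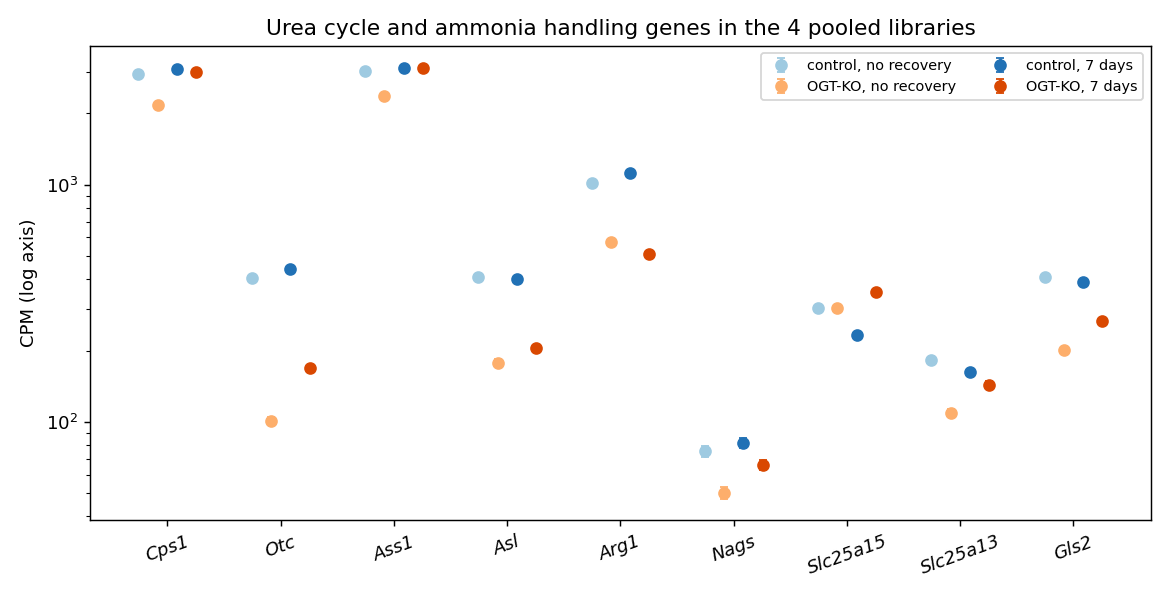
CPM of the 9 genes (log axis) in the 4 pooled libraries, 1 point per library, with 95% exact Poisson intervals that are mostly smaller than the points. Otc, Asl, Arg1, Gls2, Nags and Slc25a13 lie lower in both libraries labelled OGT-KO than in both labelled control. Slc25a15 lies higher in both, though its intervals overlap without recovery, and Cps1 and Ass1 do not part by label.

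Differences between libraries are given on the log2(CPM + 1) scale, which slightly understates the change of low genes, and a gene was called at a 2-fold difference among the 8963 genes averaging 10 CPM or more over the 4 libraries. All 9 genes passed this filter. With no recovery, 3 of the 9 genes (Otc, Asl and Gls2) were lower by 2-fold or more under the OGT-KO label, against 5.69% of all genes compared. Of the 9, 0 were at least 2-fold higher, against 24.4% of all genes. After 7 days, 2 of the 9 (Otc and Arg1) were at least 2-fold lower, against 4.27% of all genes, and again 0 were higher, against 22.9%. Otc was the member called at both times, against 3.74% of all genes lower at both. The median difference of the 9 genes was -0.73 without recovery and -0.31 after 7 days, beside 0.51 and 0.48 over all genes compared.

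How far these values lie below 0 depends on the scaling of the libraries, because the typical gene took a larger share of the libraries labelled OGT-KO. With median-ratio scaling of the libraries, the median of all genes moved to -0.19 and -0.18 and that of the 9 genes to -1.45 and -0.98. The called members were then 8 without recovery, all except Slc25a15, and 4 after 7 days (Otc, Asl, Arg1 and Gls2), against 15.4% and 11.8% of all genes lower under this scaling. When libraries were instead scaled to the summed hepatocyte markers, a scaling added after the data were seen, the median of the 9 genes was -0.31 and 0.07, and Otc alone was called at either time point, against 3.66% and 2.43% of all genes lower. Otc was at least 2-fold lower at both times under all 5 scalings run. By hepatocyte markers it was at -1.57 without recovery and -1.005 after 7 days, the second only just past 2-fold. Alb weighed most in that scaling, with 47845 of the 89551 CPM summed for control without recovery. For OGT-KO at 7 days Alb had 51507 of 78103 CPM. As deposited, Alb differed by -0.21 and -0.08 between the labels, and the median marker by -0.81 and -0.51. Scaling to the median marker was not tested.

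**Figure D2:**
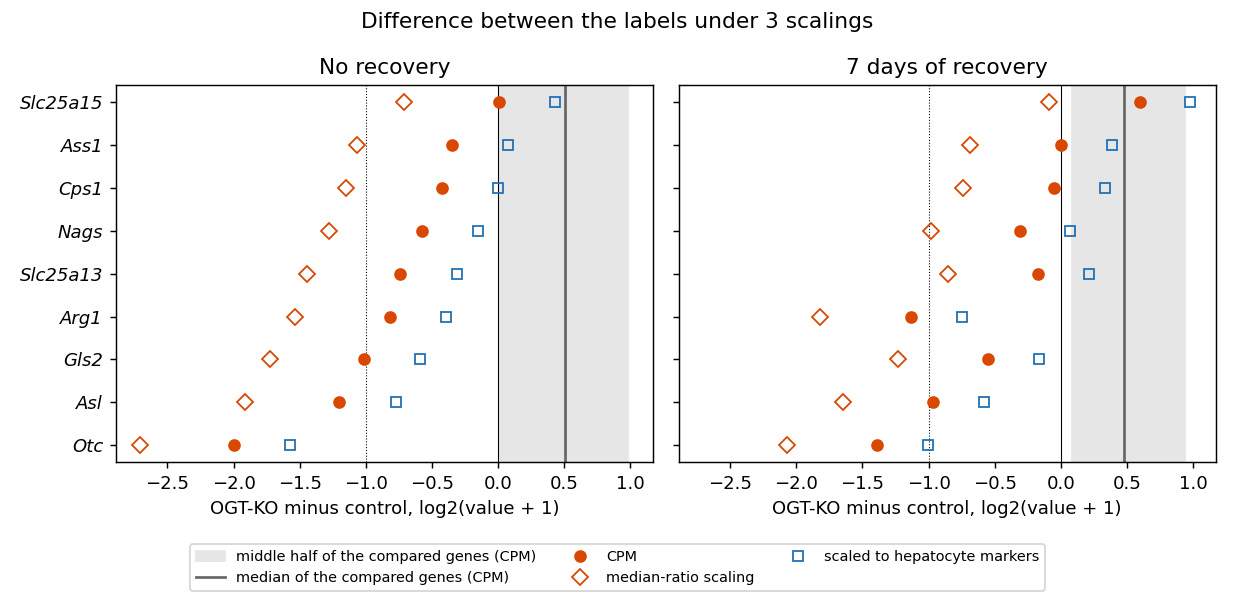
Differences between the library labelled OGT-KO and the library labelled control on the log2(value + 1) scale for the 9 genes, without recovery (left) and after 7 days (right), as deposited CPM (filled circles), with median-ratio scaling (diamonds) and scaled to the hepatocyte markers (squares). The grey band is the middle 50% of the compared genes and the grey line their median, both for CPM, and the dotted line marks 2-fold lower. A scaling moves all genes together, and Otc stays lowest and Slc25a15 highest at both times under each.

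Among the mitochondrial enzymes, Cps1, which makes the committed step of the cycle, had 2931 CPM (62316 reads, 95% exact Poisson interval 2908 to 2955) in the library labelled control without recovery and 2181 (2162 to 2200.3) in its OGT-KO counterpart. After 7 days it had 3093 (3068 to 3117) and 2982 CPM (2960 to 3005). With no recovery the library labelled OGT-KO thus stood below the other 3, at a ratio to its control of 0.744 (95% exact interval 0.735 to 0.753), and after 7 days the ratio was 0.964 (0.954 to 0.975). The log2 differences were -0.43 and -0.05, and the second turned to 0.33 when scaled to hepatocyte markers.

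Otc, the next enzyme, gave the widest difference of the 9. It had 405 CPM (8608 reads, 396 to 414) in the library labelled control and 101 CPM (2313 reads, 97.1 to 105) in the library labelled OGT-KO without recovery, and 442 (433 to 451) and 168 CPM (163 to 174) after 7 days. Both libraries labelled OGT-KO lay below both labelled control. By the ratio of CPM, Otc RNA was 4.0-fold lower without recovery and 2.63-fold lower after 7 days. Its log2(CPM + 1) differences, -1.99 and -1.39, were the 167th and 214th lowest of the 8963 genes compared. The 1 added to each CPM leaves the first just short of 4-fold (-2.00 with 0.1 added). Nags, whose product activates CPS1, was the least abundant of the 9. It had 75.2 CPM (71.5 to 79.0) and 50.4 (47.6 to 53.4) in the libraries labelled control and OGT-KO without recovery, and 81.7 (77.8 to 85.8) and 65.8 (62.5 to 69.3) after 7 days. Its log2 differences of -0.57 and -0.31 did not reach 2-fold, and the second was 0.07 when scaled to hepatocyte markers.

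The cytosolic enzymes parted from each other. Ass1, which condenses citrulline with aspartate, had 3023 CPM (2999.9 to 3047) and 2372 (2352 to 2392) in the libraries labelled control and OGT-KO without recovery, and 3097 (3072 to 3121) and 3101 (3078 to 3124) after 7 days. The intervals of the 2 libraries taken after 7 days overlap, and their ratio was 1.0 (0.991 to 1.01). The log2 differences of -0.35 and 0.00 were not of a size to be called, and both take either sign depending on the scaling (-1.07 and -0.68 by median ratio, 0.07 and 0.39 by hepatocyte markers).

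Asl, which follows ASS1 and splits its product, had 409 CPM (401 to 418) in the library labelled control and 178 (173 to 184) in the library labelled OGT-KO without recovery, and 403 (394 to 412) and 206 (200.3 to 212) after 7 days. Its log2 difference of -1.20 was called without recovery, and that of -0.96 after 7 days lay just short of 2-fold. Gls2 lay just inside the same limit, at -1.01 without recovery.

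Arg1, which releases urea, had 1014 CPM (1000.4 to 1028) in the library labelled control and 574 (565 to 584) in the library labelled OGT-KO without recovery, and 1122 (1107 to 1137) and 511 (501 to 520.1) after 7 days. Its log2 difference was -0.82 without recovery and -1.13 after 7 days, and it was the single gene of the 9 with the lower value at the second time. Alternatively activated macrophages also make Arg1. Of the macrophage list, Mrc1 had 28.6 and 63.3 CPM in the libraries labelled control and OGT-KO without recovery. After 7 days it had 15.3 and 42.2. Chil3, from the same list, had 0 and 40 reads, then 1 and 20. The part of macrophages in Arg1 RNA was not tested.

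The carriers differed from each other. Slc25a15, which exchanges ornithine and citrulline across the inner mitochondrial membrane, had 301 CPM (294 to 309) in the library labelled control and 303 (296 to 311) in the library labelled OGT-KO without recovery, intervals that overlap. After 7 days it had 234 (227 to 241) and 353 CPM (346 to 361), a ratio of 1.51 (1.46 to 1.57) and a log2 difference of 0.59. By median-ratio scaling its differences were -0.71 and -0.09, so its direction rests on the scaling. Slc25a13, the aspartate and glutamate carrier citrin, had 182 (177 to 188) and 109 CPM (105 to 114) without recovery and 162 (156 to 167) and 144 (139 to 149) after 7 days. Its log2 differences were -0.73 and -0.17, neither called, and the second was 0.21 when scaled to hepatocyte markers.

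Gls2, the liver glutaminase that feeds ammonia to CPS1, had 408 CPM (399 to 416) in the library labelled control and 202 (196 to 208) in the library labelled OGT-KO without recovery, and 389 (380.3 to 398) and 266 (260 to 273) after 7 days. It was called without recovery, at -1.01, and not after 7 days, at -0.54. Across the 9 genes, the deposited CPM gave 8 lower values in the library labelled OGT-KO without recovery and 7 after 7 days. Of all genes compared, 24.4% and 21.5% were lower. The counts of the 9 genes were 9 and 9 by median ratio and 7 and 4 when scaled to hepatocyte markers. The median of all genes was -0.19 and -0.18 under the first of these scalings, and 0.92 and 0.85 under the second. The order ran from Otc at the lowest to Slc25a15 at the highest at both times.

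Levels of different genes were compared per length, as CPM per 1000 bases of the principal coding transcript in GENCODE M21. Ass1 was the highest of the 9 in all 4 libraries, at 1399 to 1828 CPM per 1000 bases, and Nags the lowest, at 24.9 to 40.3. Otc was the fourth of the 9 in both libraries labelled control, at 175 and 191 CPM per 1000 bases, and the seventh in both labelled OGT-KO, at 43.6 and 72.6. Neighbours in the order were not always apart. With no recovery Otc (171 to 178) and Asl (166 to 173) overlapped in the library labelled control, and so did Cps1 (389 to 396) and Arg1 (382 to 396) in the library labelled OGT-KO, as did Gls2 (101 to 106) and Slc25a15 (101 to 105) after 7 days under the OGT-KO label. The 5 enzymes of the cycle together took 0.778% and 0.816% of reads in the libraries labelled control without recovery and after 7 days, and 0.541% and 0.697% in those labelled OGT-KO.

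Ratios of reads within a library do not depend on how libraries are scaled. For each read on Otc there were 7.24 reads on Cps1 (95% exact interval 7.08 to 7.41) in the library labelled control without recovery and 21.6 (20.7 to 22.5) in the library labelled OGT-KO, and 7.00 (6.84 to 7.15) and 17.7 (17.2 to 18.3) after 7 days. The proportion of these successive mitochondrial enzymes thus differed 2.98-fold and 2.53-fold between the labels. For the successive cytosolic enzymes, reads on Ass1 per read on Asl were 7.39 (7.22 to 7.55) and 13.3 (12.9 to 13.8) without recovery, and 7.69 (7.51 to 7.87) and 15.0 (14.6 to 15.5) after 7 days. These differed 1.80-fold and 1.96-fold between the labels.

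The balance with related genes was compared in the same way. Arg2 encodes the arginase that prevails outside hepatocytes. Arg2 was at 17 and 44 reads without recovery and 11 and 38 after 7 days, and reads on Arg1 per read on Arg2 were 1268 (792 to 2177) and 299 (222 to 411), then 2037 (1138 to 4081) and 303 (221 to 429). For Slc25a13 and its paralogue Slc25a12, the ratios of 11.7 (10.5 to 13.2) and 8.80 (7.78 to 9.99), then 9.23 (8.26 to 10.3) and 8.17 (7.36 to 9.09), overlapped after 7 days. The libraries labelled OGT-KO held more reads on the markers of other cell types, as given above, and their part in these ratios was not tested.

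**Figure D3:**
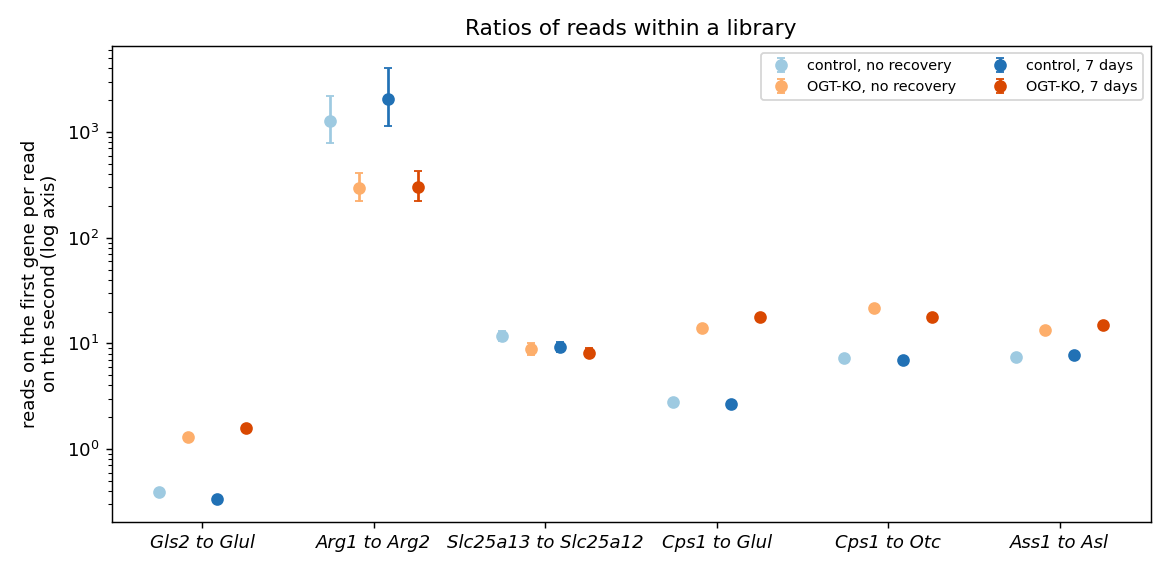
Reads on the first gene for each read on the second (log axis) for 6 gene pairs in the 4 libraries, with 95% exact intervals for counting error. Arg1 to Arg2 is lower, and Gls2 to Glul, Cps1 to Glul, Cps1 to Otc and Ass1 to Asl higher, in both libraries labelled OGT-KO than in both labelled control.

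Of 27 other nitrogen handling genes listed, 24 were in the table and 20 had a mean of at least 10 CPM. With no recovery 7 of the 20 were at least 2-fold lower and 2 higher in the library labelled OGT-KO, and after 7 days 4 were lower and 2 higher. Over all genes, as above, 5.69% were lower and 24.4% higher without recovery, and 4.27% and 22.9% after 7 days. The list's median was -0.26 and -0.05. The lower genes at both times included Glul and Slc1a2, 2 genes of the perivenous rim. Glul, glutamine synthetase, had 1043 CPM (1030 to 1057) and 155 (150 to 160.2) in the libraries labelled control and OGT-KO without recovery and 1150.2 (1135 to 1165) and 166 (161 to 172) after 7 days, log2 differences of -2.74 and -2.78. Slc1a2, a glutamate transporter of the same cells, had 173 and 4.29 CPM, then 148 and 3.06.

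Glul was thus further apart between the labels than any of the 9 genes at both times. Reads on Cps1 per read on Glul were 2.81 (2.77 to 2.85) and 14.1 (13.6 to 14.6) without recovery, and 2.69 (2.65 to 2.73) and 17.9 (17.3 to 18.5) after 7 days. Reads on Gls2 per read on Glul were 0.391 (0.381 to 0.401) and 1.30 (1.25 to 1.36), then 0.338 (0.329 to 0.347) and 1.60 (1.54 to 1.67), so Glul had the more reads of the pair under the control label and Gls2 under the OGT-KO label. Oat, ornithine aminotransferase, had 846 and 244 CPM without recovery and 685 and 385 after 7 days, and was called at the first time point, at -1.79, and not at the second, at -0.83.

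Car5a, the mitochondrial carbonic anhydrase that supplies bicarbonate to CPS1, had 63.7 and 13.8 CPM without recovery and 58.7 and 21.8 after 7 days. Its log2 differences of -2.13 and -1.39 were close to those of Otc. Slc38a3, a glutamine transporter, had 1592 and 743 CPM, then 1849 and 722. Higher at both times was Odc1, which draws ornithine into polyamines, at 1.01 and 1.34 (87.5 and 177 CPM, then 59.5 and 152). Glul, Slc1a2, Car5a, Slc38a3 and Odc1 kept their direction under all 5 scalings, but Odc1 was at 0.30 and 0.66 by median ratio and 0.65 and 0.95 by upper quartile, and Slc38a3 at -0.67 and -0.97 when scaled to hepatocyte markers, all short of 2-fold. Glud1, glutamate dehydrogenase, had 890.3 and 764 CPM, then 804 and 973, and its sign differed between scalings.

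**Figure D4:**
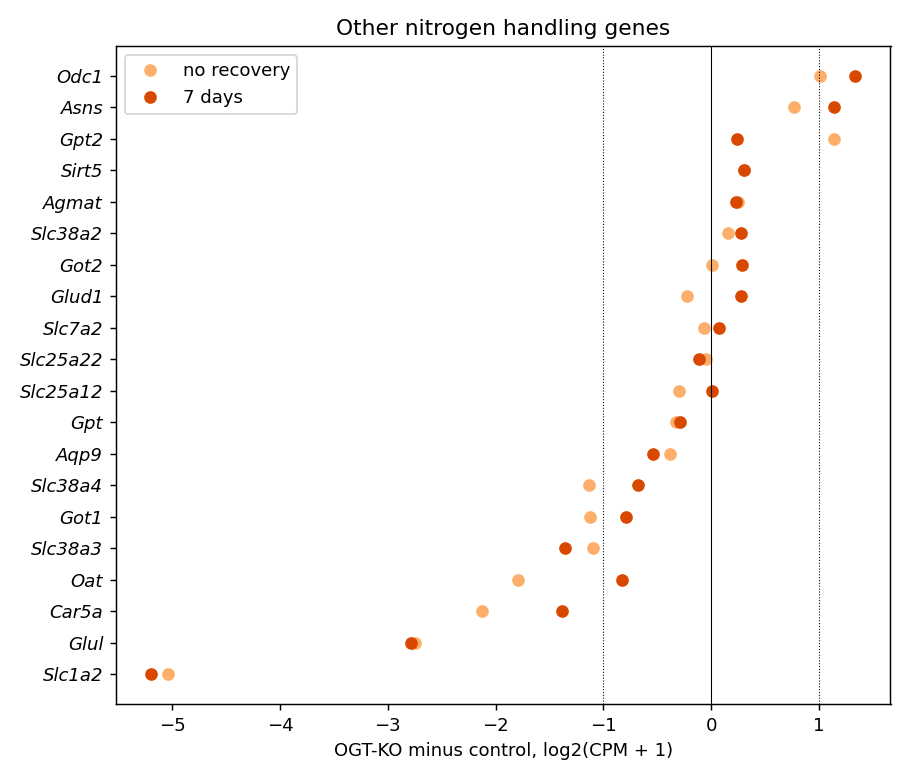
Differences between the library labelled OGT-KO and the library labelled control, log2(CPM + 1), for the 20 other nitrogen handling genes compared, without recovery (light) and after 7 days (dark), 1 library per condition. Dotted lines mark 2-fold. Slc1a2 and Glul lie farthest below 0 and Odc1 farthest above it at the second time.

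Regulators of these genes were read from a list of 9 genes, mostly transcription factors with the coactivator Ppargc1a and the receptor Gcgr, of which 8 had a mean of at least 10 CPM. With no recovery 3 of the 8 were lower by 2-fold or more under the OGT-KO label (Hnf4a, Klf15 and Gcgr). After 7 days 2 were (Cebpa and Gcgr), and 0 were higher by that much at either time. Of all genes compared, 5.69% and 4.27% were at least 2-fold lower at these times, and 24.4% and 22.9% higher. Gcgr, the glucagon receptor, through which fasting raises the cycle's enzymes, had 287 and 141 CPM without recovery and 290.3 and 134 after 7 days. Hnf4a had 851 and 335 CPM, then 864 and 458, and Cebpa 502 and 251, then 557 and 265. These values were lower in both libraries labelled OGT-KO under all 5 scalings, and fell short of 2-fold when scaled to hepatocyte markers.

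Of 8 listed periportal genes outside the cycle, 2 were at least 2-fold lower at each time, against 5.69% and 4.27% of all genes. At each time 2 were at least 2-fold higher, a share near the 24.4% and 22.9% of all genes. Cyp2f2, a cytochrome P450 (2199 and 392 CPM, then 1854 and 270.0) and Hal, the first enzyme of histidine breakdown (427 and 64.1 CPM, then 417 and 117) were the lower ones at both times, and Cdh1, E-cadherin (71.6 and 220.0 CPM, then 74.4 and 337) was higher at both. The median of the list was -0.30 and -0.14, beside -0.73 and -0.31 for the 9 genes. Of the 9 hepatocyte markers compared, 3 were at least 2-fold lower without recovery and 4 after 7 days, against 5.69% and 4.27% of all genes. Of these markers 0 were higher, against 24.4% and 22.9% of all genes, and their median was -0.81 and -0.51. Apoa1, Apoa2 and Apoh were at least 2-fold lower at both times, as were 3.74% of all genes. Their log2 differences ran from -1.97 to -1.43, while Alb had -0.21 and -0.08 and Ahsg 0.25 and 0.01. The difference of Otc was wider than those of all 3 apolipoproteins at the first time, at -1.99, and narrower than all 3 at the second, at -1.39.

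Recovery was read as the library after 7 days against the library without recovery, within a label. These comparisons share libraries with the label comparisons above. In the libraries labelled control, 0 of the 9 genes differed by 2-fold, against 0.96% of all genes lower and 0.245% higher, and their differences ran from -0.37 (Slc25a15) to 0.15 (Arg1), with a median of 0.03 beside -0.05 over all genes. In the libraries labelled OGT-KO, again 0 of 9 reached 2-fold, against 0.435% lower and 1.04% higher. Over all genes 54.5% were lower after 7 days, but 8 of the 9 were higher, with a median of 0.39 beside -0.03 over all genes. Otc gave the largest of these differences, at 0.73, with a ratio of 1.66 (1.58 to 1.75), followed by Cps1 at 0.45 and Gls2 at 0.40. Arg1 was the exception, at -0.17, a ratio of 0.889 (0.867 to 0.912). The summed hepatocyte markers were also higher after 7 days, by 1.14-fold in control and 1.17-fold in OGT-KO, and the summed macrophage markers lower, at 233 and then 91.6 CPM in control and 883 and then 706 CPM in OGT-KO. Scaled to the hepatocyte markers, the median over the 9 genes was -0.15 in control, with 9 of 9 below 0. In OGT-KO it was 0.16, with 6 of 9 above 0. The median over all genes under this scaling was -0.23 and -0.25.

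The label difference after 7 days less that without recovery was above 0 for 8 of the 9 genes, from 0.23 (Asl) to 0.60 (Otc), and was -0.32 for Arg1. Over all genes compared it was above 0 for 54.3%, with a median of 0.03. Otc after 7 days under the OGT-KO label, at 168 CPM, was still below the 405 CPM of the library labelled control without recovery, whereas the ratios of Cps1 and Ass1 to the control taken after 7 days were 0.964 and 1.0 on the deposited scale. With 1 pool per condition, recovery cannot be told apart from differences between the mice pooled.

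The mean profile of the 9 genes over the 4 libraries was compared with 3211 other genes of a mean of at least 50 CPM, by the Euclidean distance between log2(CPM + 1) values centred on each gene's own mean. The 5 nearest were Acaa2 (distance 0.055), Pcbd1 (0.068), Kmo (0.070), Amdhd1 (0.072) and Pxmp4 (0.078). Acaa2, a thiolase of mitochondrial fatty acid oxidation, had 707 and 392 CPM without recovery and 699 and 499 after 7 days. Kmo and Amdhd1 encode enzymes of tryptophan and histidine breakdown. Of the 9 genes themselves, Gls2 (0.174), Slc25a13 (0.202) and Nags (0.203) lay nearest to their mean profile, and Slc25a15 (0.952) and Otc (1.12) farthest from it.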

How the data were processed

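Per the labels, mRNA libraries were prepared from total liver RNA (TRIzol, Tecan universal plus mRNA-seq), and the submitters' processing notes name STAR, DESeq2 and GRCm39. Versions, the annotation and the filter behind the gene list are not given in the sources used here. The authors deposited CPM for 13903 genes in 4 libraries. The 4 columns each sum to 1000000, and 100% of values were whole multiples of 1 read (tolerance 0.01 reads), so the read counts were recovered. How reads shared by gene copies were counted is not given.

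Differences are of log2(CPM + 1), with 1 library per condition, no test and no p-value. A gene with a mean of at least 10 CPM was called at 2-fold. Intervals are 95% exact Poisson intervals of a value, or exact Clopper-Pearson intervals of a ratio of reads. They cover counting error only. Choices varied 1 at a time were the pseudocount (0.1 or 10), the filter (none, or a mean of 50 CPM), the threshold (4-fold), median-ratio or upper-quartile scaling, totals without the 100 highest genes, an added exact binomial test on the recovered reads (Benjamini-Hochberg adjusted, threshold 0.05), which compares libraries and not conditions, and, added after seeing the data, scaling to the hepatocyte markers.

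Named genes are the 9 members, Ogt, genes of each fixed list that were called in 1 direction at both time points (at most 6 per list), Glul, Glud1, Arg2 and Oat, and the 5 genes nearest in profile. Mrc1, Chil3, Alb, Ahsg, Hnf4a, Cebpa, Klf15 and Slc25a12, and the gene pairs, were chosen after values were seen. Members and lists were chosen with earlier results of these data known. 1 gene of the nitrogen handling list is not reported here and was left out of its counts. The lists held 27 nitrogen handling genes, 9 regulators, 8 periportal genes, 10 hepatocyte markers and 35 markers of other cells. Transcript lengths are of GENCODE M21 and promoters of RefSeq (both GRCm38), not of the build named by the submitters, and were joined by gene identifier or symbol. Calls, recovery of reads and intervals were tested on simulated data. Python 3.11, numpy 2.4.6, pandas 2.3.3, scipy 1.17.1 and matplotlib 3.10.9 were used.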

Additional observations from a re-analysis of the deposited data

Results flagged for a closer look

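For 6 of the 9 genes the deposited values of the same contrast had opposite signs in its 2 settings. With 1 library per condition none of these differences was tested. Between the labels, Ass1 was at -0.35 without recovery and 0.0020 after 7 days, on the log2(CPM + 1) scale. From no recovery to 7 days, Slc25a15 was at -0.37 in the libraries labelled control and 0.22 in those labelled OGT-KO, and Slc25a13 at -0.17 and 0.39. Gls2 was at -0.068 and 0.40 in the same order, and Asl at -0.024 and 0.21. Arg1 ran the other way, at 0.15 in the libraries labelled control and -0.17 in those labelled OGT-KO. For Ass1 after 7 days and Asl in control the interval of the ratio includes 1 (0.991 to 1.01 and 0.954 to 1.01), so these values differ from 0 by no more than counting error. Of the 6, Slc25a13 alone kept opposite signs under all 5 scalings. By median ratio Ass1 after 7 days was at -0.68 and Asl in control at 0.016, by upper quartile Gls2 in control was at 0.0058, and scaled to hepatocyte markers Slc25a15 in OGT-KO was at -0.0072 and Arg1 in control at -0.042.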

How the results depend on the processing

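No paired analysis was possible because each condition has 1 library. Of 100 recomputed counts of genes, 73 stayed within 1.5 times the main count and 27 did not. No called difference of the 9 genes changed sign under any alternative. Where 2 values are given, the first is without recovery and the second after 7 days, and causes were not tested where none is given. The members called, 3 and 2 as deposited, were 8 and 4 by median ratio, 5 by upper quartile with no recovery, 1 and 1 when scaled to hepatocyte markers, and 0 and 0 at 4-fold. The share of all genes lower moved with them, at 5.69% and 4.27% as deposited, 15.4% and 11.8% by median ratio, 9.03% by upper quartile without recovery, 3.66% and 2.43% when scaled to hepatocyte markers, and 1.83% and 0.971% at 4-fold. Otc without recovery, at -1.99 with the pseudocount of 1, lay just short of 4-fold. The nitrogen handling genes called, 9 and 6, were 3 and 2 at 4-fold. Over all genes, 2695 and 2433 were called between the labels. These counts were 5200 and 4953 with no filter, 876 and 784 with a mean of at least 50, 855 and 875 at 4-fold, 4387 and 3804 when scaled to hepatocyte markers, and 1781 with no recovery at a pseudocount of 10. Higher genes made up 81.1% and 84.3% of those called as deposited, 40.4% and 49.6% by median ratio, 63.3% and 67.4% by upper quartile, 70.7% and 73.4% without the 100 highest genes, and 92.5% and 94.3% when scaled to hepatocyte markers. Between the time points, 108 genes were called in the libraries labelled control and 132 in those labelled OGT-KO. In control they were 165 at a pseudocount of 0.1, 33 at 10, 165 with no filter, 42 with a mean of at least 50 and 5 at 4-fold. In OGT-KO they were 57 at a pseudocount of 10, 288 with no filter, 54 with a mean of at least 50 and 8 at 4-fold. The share of higher calls between the time points moved from 20.4% to 9.68% in control and from 70.5% to 31.7% in OGT-KO when scaled to hepatocyte markers. The exact binomial test on the recovered reads removed no call, and by itself called 8011 and 7899 genes between the labels. It says nothing of differences between mice.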
